A study of Mus musculus with 12 samples.

Results

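The 39 genes described here encode the nucleolar machinery that transcribes and processes ribosomal RNA (rRNA), and they were chosen by symbol from a table of 24770 genes. All 39 were in the table, and all 39 passed the filter on low values, which kept 12311 genes with at least 1 FPKM (fragments relative to transcript length and to all mapped fragments) in at least 3 libraries. RNA was sequenced from cells of the mouse line GC-2 in 12 libraries. The labels call these cells wild type and type B spermatogonia. The 4 groups of 3 libraries were MLN4924 (1 µM) under hypoxia (1% O2), MLN4924 (1 µM) under normoxia, DMSO under hypoxia and DMSO under normoxia, each for 24 h. All of them were grown in DMEM with fetal bovine serum, and DMSO was the solvent control. The series title asks whether blocking neddylation adds to death of these cells in hypoxia. The series text names the 3 libraries of a group biological replicates, and the p-values measure the spread between them.

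Ribosomes are made in the nucleolus, where RNA polymerase I (Pol I) copies the rDNA repeats into one long precursor RNA. Small nucleolar ribonucleoproteins (snoRNPs) modify that precursor, and large sets of processing factors cut and fold it into the RNAs of the small and the large ribosomal subunit. This is among the costliest activities of a growing cell; the transcription factor MYC is known to raise many of its genes, and hypoxia is known to restrain rRNA synthesis in cultured cells. MLN4924 (pevonedistat) blocks the enzyme that activates the ubiquitin-like protein NEDD8, and cullin-RING ubiquitin ligases lose activity without NEDD8. The libraries report the mRNAs of the nucleolar factors; rRNA synthesis itself was not measured.

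Promoters of 5 members are printed to show where the motif that textbooks link to MYC and MAX, the E-box CACGTG, lies in 3 of the members that hold it (Rrn3, Mybbp1a and Nop2), beside 2 windows without it: that of Nhp2, whose values were most like those of the other members, and that of Taf1d, whose values were least like them. Each is a RefSeq window of 300 bases around the annotated transcription start on GRCm38.p6, written 5′ to 3′ on the plus strand, which is the strand of all 5 genes, with each E-box in capitals. The windows are chr16:13780449-13780748 for Rrn3, chr11:72441077-72441376 for Mybbp1a, chr6:125131633-125131932 for Nop2, chr11:51619523-51619822 for Nhp2 and chr9:15305964-15306263 for Taf1d.
Rrn3: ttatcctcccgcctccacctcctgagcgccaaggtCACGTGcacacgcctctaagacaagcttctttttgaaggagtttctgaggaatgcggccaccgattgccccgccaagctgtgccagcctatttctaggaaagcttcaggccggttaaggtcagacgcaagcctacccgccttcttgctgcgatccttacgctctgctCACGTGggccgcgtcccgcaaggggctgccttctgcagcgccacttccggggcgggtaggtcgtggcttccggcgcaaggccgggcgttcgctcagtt
Mybbp1a: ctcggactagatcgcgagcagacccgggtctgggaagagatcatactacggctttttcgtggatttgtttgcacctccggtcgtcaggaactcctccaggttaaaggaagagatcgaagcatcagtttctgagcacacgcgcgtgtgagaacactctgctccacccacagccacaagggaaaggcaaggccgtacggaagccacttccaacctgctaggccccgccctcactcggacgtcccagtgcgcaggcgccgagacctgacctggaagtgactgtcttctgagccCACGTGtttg
Nop2: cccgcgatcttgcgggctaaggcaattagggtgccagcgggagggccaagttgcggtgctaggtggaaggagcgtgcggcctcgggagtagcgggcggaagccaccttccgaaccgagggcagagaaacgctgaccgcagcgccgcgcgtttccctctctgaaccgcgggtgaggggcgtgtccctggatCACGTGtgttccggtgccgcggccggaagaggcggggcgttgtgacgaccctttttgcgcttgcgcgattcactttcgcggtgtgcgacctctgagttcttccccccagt
Nhp2: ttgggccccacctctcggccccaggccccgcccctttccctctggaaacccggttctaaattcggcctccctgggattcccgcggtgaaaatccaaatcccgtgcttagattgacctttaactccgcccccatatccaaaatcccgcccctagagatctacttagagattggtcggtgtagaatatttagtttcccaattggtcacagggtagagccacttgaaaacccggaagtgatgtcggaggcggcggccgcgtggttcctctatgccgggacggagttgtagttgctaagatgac
Taf1d: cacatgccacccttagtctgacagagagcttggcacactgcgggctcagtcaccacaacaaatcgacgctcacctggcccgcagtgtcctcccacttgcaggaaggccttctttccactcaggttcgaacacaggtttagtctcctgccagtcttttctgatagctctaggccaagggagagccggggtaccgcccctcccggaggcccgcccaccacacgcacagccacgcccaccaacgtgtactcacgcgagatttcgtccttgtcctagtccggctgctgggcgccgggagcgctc
The Rrn3 window held 2 E-boxes, the Mybbp1a and Nop2 windows 1 each, and the Nhp2 and Taf1d windows 0. Windows were found for 33 of the 39 members, and 7 of the 33 (21.2%) held CACGTG: Rrn3, Mybbp1a, Utp4, Utp20, Wdr43, Pes1 and Nop2. The same letters were in 11.9% of the windows of 9165 tested genes and in 7.15% of all 32851 windows. ACGTG on either strand, the core of the hypoxia response element, which also lies inside CACGTG, was in 13 of the 33 (39.4%), against 30.0% of the tested genes and 19.6% of all windows. TGACNNNGC on either strand, the core of the antioxidant response element, was in 3 of the 33 (9.09%), namely Taf1d, Gar1 and Bysl, against 17.0% of the tested genes and 12.4% of all windows. No link of these motifs with the measured changes was tested. The E-box was absent from 26 of the 33 windows. These are matches of letters only.

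Library totals ran from 530452 to 633597 FPKM, and 11180 to 11644 genes reached 1 FPKM in a library; FPKM hold no read counts, so the depth is unknown. The hypoxia label was checked with Ndrg1, a gene known to be induced by low oxygen, which had 287.1 to 324 FPKM with MLN4924 and 563 to 696 FPKM with DMSO in hypoxia, against 21.4 to 24.9 FPKM with MLN4924 and 46.3 to 48.0 FPKM with DMSO in normoxia. Of 12 spermatogonial markers, 8 were in the table and only Gfra1 (1.14 to 6.23 FPKM) and Uchl1 (10.8 to 22.4 FPKM) reached 1 FPKM in any library. Kit, Sohlh1, Sohlh2, Ddx4, Nanos3 and Id4 stayed at or below 0.26 FPKM, so these germ cell markers were near 0 in these cells. Of the fibroblast markers, the collagen genes Col1a1 and Col1a2 had 365 to 739 FPKM and 338 to 636 FPKM. Col3a1 and Pdgfra reached 13.5 and 11.9 FPKM, while Thy1 and Dcn stayed at or below 0.11 and 0.78 FPKM. The summed FPKM of 6 fibroblast markers was 900.1 to 928 in MLN4924 hypoxia, 721 to 726 in MLN4924 normoxia, 1151 to 1393 in DMSO hypoxia and 1164 to 1192 in DMSO normoxia. Of 6 Sertoli cell markers, 5 were in the table, Sox9, Wt1 and Gata4 reached 1 FPKM and Fshr stayed at or below 0.03 FPKM. Their sum was 9.83 to 13.6 FPKM in MLN4924 hypoxia, 6.46 to 9.75 in MLN4924 normoxia, 18.0 to 23.0 in DMSO hypoxia and 12.8 to 15.6 in DMSO normoxia, lowest where most nucleolar genes were highest and highest where they were lowest. The sum of 2 macrophage markers in the table, of which Cd68 reached 1 FPKM and Csf1r did not, was 3.39 to 3.86 FPKM in MLN4924 hypoxia and 1.33 to 2.11 FPKM over the other groups. In bulk RNA, fewer cells of a type and less RNA per cell cannot be told apart, and the part of these marker shifts in the results below was not tested.

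One library stood apart. DMSO hypoxia replicate 1 had the highest total (633597 FPKM) and correlated at a mean Spearman rho of 0.926 across genes with replicates 2 and 3. Its array weight in limma was 0.0736. It listed 57 tested genes at 0 that had at least 5 FPKM in both other libraries of its group, against 4 to 11 such genes in the other libraries, and 2 of the 57 were members, Nolc1 and Wdr75. Members with longer transcripts tended to lie lower in it relative to replicates 2 and 3, though Wdr12, Nop58, Polr1a and Ncl, among the longest, did not. The Spearman rho of that difference with transcript length was -0.557 over the 39 members and -0.513 over 12003 tested genes. This library was below both others of its group in 13 of the 39 members and above both in 15, so it did not move the members 1 way. Over all 12311 tested genes it was below both in 4791 and above both in 5571. Sizes were uneven, with -3.55 in Nolc1, -2.93 in Wdr75 and -1.23 in Heatr1, and 1.32 in Wdr12. The totals of called members in each comparison are given below with and without it. Other counts, such as group order, the F-test, library separation and overlaps, used all 12 libraries unless stated.

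**Figure D1:**
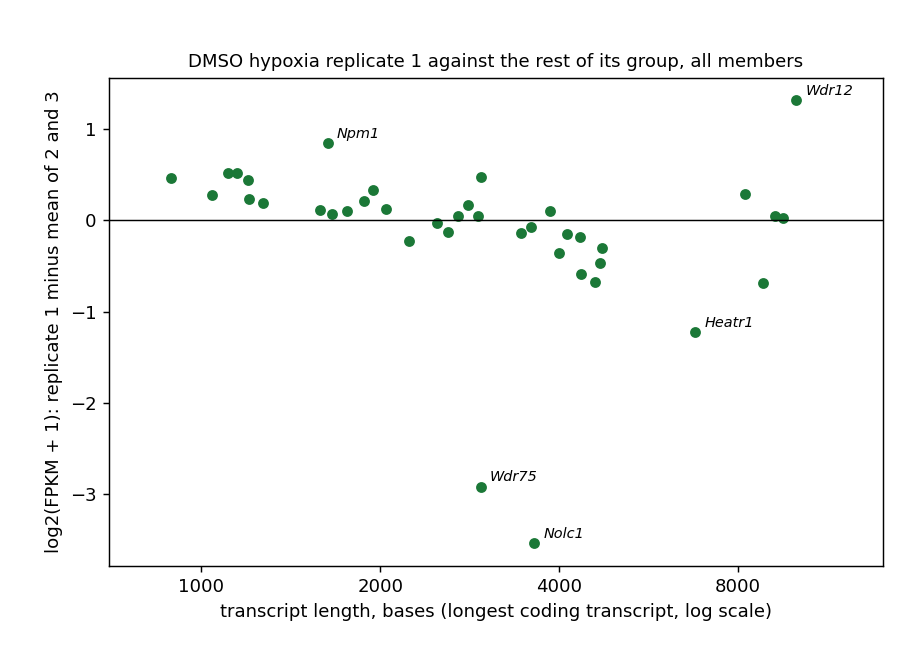
Difference of DMSO hypoxia replicate 1 from the mean of replicates 2 and 3, in log2(FPKM + 1), against the length of the longest coding transcript in bases (log scale), 1 point a member for all 39. Short transcripts mostly lie above 0 and those of 3450 to 4722 bases mostly below. Among the longest, Wdr12, Nop58, Polr1a and Ncl lie above 0, and Utp20 and Heatr1 below. Nolc1 and Wdr75, listed at 0 in this library, are lowest, and Wdr12 is highest.

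Across the 4 groups the members moved largely together. Most of these mRNAs were highest with MLN4924 in normoxia and lowest with DMSO in hypoxia, while both MLN4924 hypoxia and DMSO normoxia lay between. The mean was highest in MLN4924 normoxia for 34 of the 39 members (25.7% of all tested genes), with Ubtf, Taf1d, Tcof1, Npm1 and Nop14 as exceptions. It was lowest in DMSO hypoxia for 34 of the 39 as well (30.7% of all tested genes), with Ubtf, Taf1d, Npm1, Gar1 and Nop10 as exceptions. In 22 members, against 3.85% of all tested genes, the 3 MLN4924 normoxia libraries lay above all the others and the 3 DMSO hypoxia libraries below all the others. An F-test across the 4 groups in limma passed an adjusted p of 0.05 in 38 of the 39 members, against 52.7% of all tested genes; Npm1 did not pass (adjusted p = 0.1001).

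The same order stood in the summed level. The 39 members together took 0.277% to 0.281% of all FPKM in the MLN4924 hypoxia libraries, 0.368% to 0.392% in MLN4924 normoxia, 0.189% to 0.202% in DMSO hypoxia and 0.261% to 0.278% in DMSO normoxia. The ranges of MLN4924 normoxia and of DMSO hypoxia did not overlap with any other, and those of MLN4924 hypoxia and DMSO normoxia did. Set against the DMSO normoxia mean of each gene, the median member of a library lay at -0.01, 0.0027 and -0.09 log2 units in MLN4924 hypoxia, at 0.56, 0.55 and 0.48 in MLN4924 normoxia, and at -0.59, -0.56 and -0.64 in DMSO hypoxia.

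**Figure D2:**
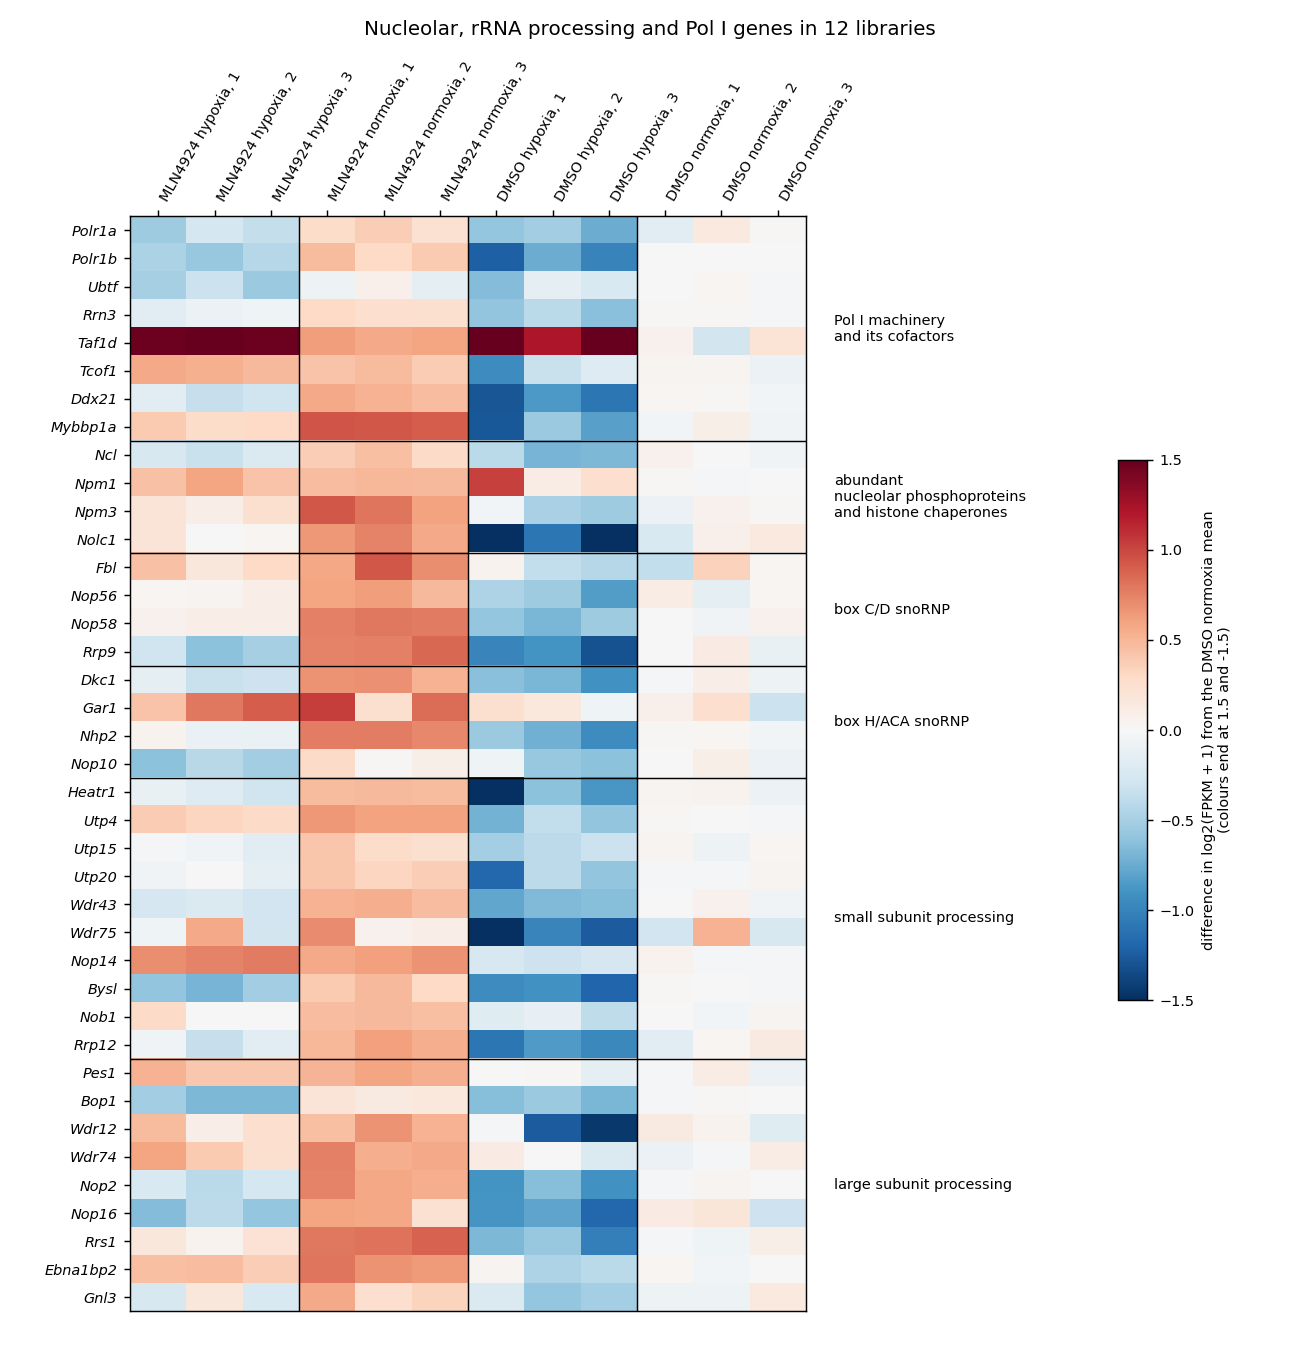
Difference of each library from the DMSO normoxia mean in log2(FPKM + 1), with 1 row for each of the 39 members, grouped by role, and 1 column a library; red is higher, blue is lower, and the colour scale is cut at both ends. MLN4924 normoxia columns are mostly red and DMSO hypoxia columns mostly blue, whereas Taf1d is red in all hypoxia libraries.

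Pol I and its cofactors came first along the pathway. Group values with ± are means and SD over 3 libraries, and log2 fold changes are on the scale of log2(FPKM + 1) with their standard error (SE), and a positive value for A against B means higher in A. Polr1a and Polr1b encode the pair of subunits that form the catalytic centre of Pol I. Polr1b had 5.89, 5.47 and 6.11 FPKM in MLN4924 hypoxia, 12.3, 10.8 and 11.6 FPKM in MLN4924 normoxia, 3.09, 4.71 and 3.78 FPKM in DMSO hypoxia, and 8.53, 8.57 and 8.58 FPKM in DMSO normoxia. No pair of groups overlapped. Polr1a had 5.54, 6.86 and 6.36 FPKM in MLN4924 hypoxia, 10.5, 11.2 and 10.1 FPKM in MLN4924 normoxia, 5.31, 5.57 and 4.63 FPKM in DMSO hypoxia, and 7.42, 9.46 and 8.59 FPKM in DMSO normoxia. All normoxia libraries lay above all hypoxia libraries, whereas the 2 hypoxia groups overlapped.

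The promoter factors of Pol I did not follow 1 pattern. Rrn3, the factor that joins Pol I to the promoter complex, had 19.2, 20.3 and 20.7 FPKM in MLN4924 hypoxia, 26.7, 25.9 and 25.6 FPKM in MLN4924 normoxia, 14.0, 16.1 and 13.6 FPKM in DMSO hypoxia, and 21.9, 21.8 and 21.1 FPKM in DMSO normoxia, with no overlap between groups. Ubtf, the DNA-binding factor that keeps rDNA open, had 14.9, 17.0 and 14.2 FPKM in MLN4924 hypoxia, 20.3, 22.6 and 19.3 FPKM in MLN4924 normoxia, 13.3, 19.4 and 18.1 FPKM in DMSO hypoxia, and 21.3, 21.9 and 21.0 FPKM in DMSO normoxia. Its groups with and without MLN4924 overlapped at both oxygen levels. Taf1d, a subunit of the promoter selectivity factor SL1, went the other way in hypoxia: it had 26.9, 28.1 and 26.8 FPKM in MLN4924 hypoxia and 36.2, 22.2 and 27.9 FPKM in DMSO hypoxia, against 14.5, 13.9 and 14.2 FPKM in MLN4924 normoxia and 9.52, 7.31 and 10.6 FPKM in DMSO normoxia. All its hypoxia libraries lay above all its normoxia libraries. In the GENCODE vM21 annotation, exons of Taf1d overlap those of Cep295 on the opposite strand and several snoRNAs on its own, and the strandedness of the libraries is not given in the sources used here, so how the reads were split between them is uncertain.

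The helicase and scaffold genes around Pol I spanned a wide range. Ddx21, an RNA helicase active in rRNA transcription and processing, had 36.9, 32.2 and 33.3 FPKM in MLN4924 hypoxia, 61.5, 59.3 and 56.8 FPKM in MLN4924 normoxia, 16.3, 22.1 and 18.8 FPKM in DMSO hypoxia, and 41.9, 41.5 and 39.9 FPKM in DMSO normoxia, and no groups overlapped. Mybbp1a, a nucleolar protein that binds Pol I and p53, had 67.0, 62.1 and 62.8 FPKM in MLN4924 hypoxia, 98.8, 97.8 and 96.6 FPKM in MLN4924 normoxia, 20.6, 34.3 and 28.5 FPKM in DMSO hypoxia, and 49.6, 54.2 and 49.3 FPKM in DMSO normoxia. Its groups did not overlap either, and here both MLN4924 groups stood above both DMSO groups. Tcof1, which encodes treacle, a link between Pol I transcription and rRNA modification that is mutated in Treacher Collins syndrome in humans, averaged 24.0 ± 0.696 FPKM in MLN4924 hypoxia, 22.3 ± 0.755 FPKM in MLN4924 normoxia, 11.6 ± 3.21 FPKM in DMSO hypoxia and 16.3 ± 0.907 FPKM in DMSO normoxia.

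Among the abundant nucleolar phosphoproteins, Ncl (nucleolin, which binds rDNA and pre-rRNA) followed the common order and Npm1 (nucleophosmin, a histone chaperone) did not. Ncl had 240.3, 225 and 244 FPKM in MLN4924 hypoxia, 367, 389.9 and 346 FPKM in MLN4924 normoxia, 215, 175 and 177 FPKM in DMSO hypoxia, and 297, 282 and 273 FPKM in DMSO normoxia. No groups overlapped. Npm1 had 244, 272 and 241 FPKM in MLN4924 hypoxia, 247, 253 and 251 FPKM in MLN4924 normoxia, 366, 193 and 213 FPKM in DMSO hypoxia, and 182, 176 and 180.0 FPKM in DMSO normoxia. Its lowest library in every other group lay above its highest in DMSO normoxia, and the 366 FPKM came from the library that stood apart. Npm1 also has many processed pseudogenes, and how the authors assigned reads shared with them is not given in the sources used here.

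Npm3, a smaller relative of Npm1, and Nolc1, a chaperone of snoRNPs, were lowest in DMSO hypoxia. Npm3 had 51.1, 47.8 and 52.8 FPKM in MLN4924 hypoxia, 85.8, 78.7 and 68.2 FPKM in MLN4924 normoxia, 43.4, 31.6 and 30.6 FPKM in DMSO hypoxia, and 42.0, 46.6 and 45.2 FPKM in DMSO normoxia. Both MLN4924 groups lay above both DMSO groups, which overlapped each other. Nolc1 was listed at 0 in DMSO hypoxia replicate 1 and had 14.0 and 8.14 FPKM in the other libraries of that group, against 35.4, 30.7 and 31.5 FPKM in MLN4924 hypoxia, 48.7, 52.3 and 46.1 FPKM in MLN4924 normoxia and 26.2, 32.5 and 34.1 FPKM in DMSO normoxia.

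**Figure D3:**
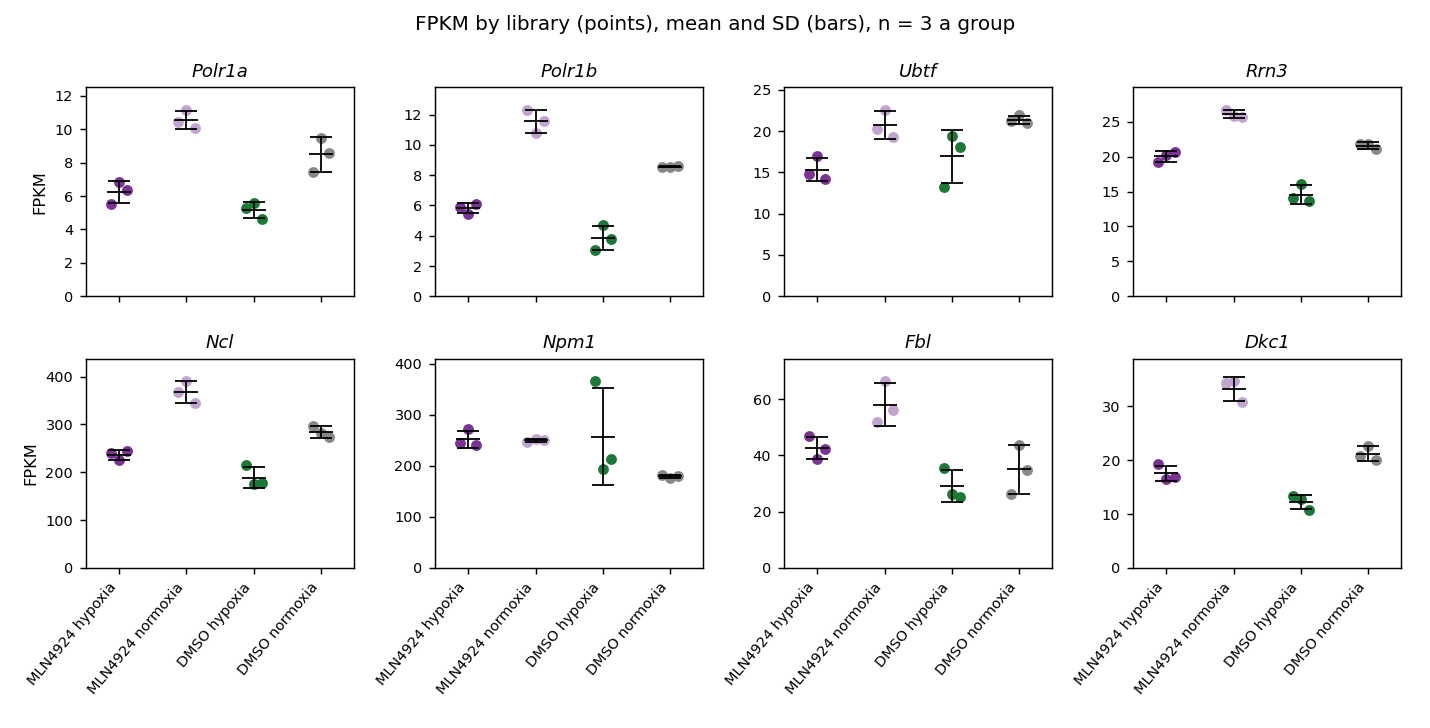
FPKM of Polr1a, Polr1b, Ubtf, Rrn3, Ncl, Npm1, Fbl and Dkc1 in each library (points) with the mean and SD of 3 libraries (bars), each panel on its own axis from 0. In Polr1b, Rrn3, Ncl and Dkc1 the groups do not overlap and MLN4924 normoxia is highest, while Npm1 has 1 DMSO hypoxia library far above the rest.

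The box C/D snoRNPs place methyl groups on the ribose of rRNA. Fbl, the methyltransferase itself, had 46.8, 38.8 and 42.3 FPKM in MLN4924 hypoxia, 51.7, 66.3 and 56.1 FPKM in MLN4924 normoxia, 35.6, 26.4 and 25.3 FPKM in DMSO hypoxia, and 26.4, 43.7 and 34.9 FPKM in DMSO normoxia. Its DMSO groups overlapped widely. Nop58, a core scaffold of the particle, had 39.7, 40.7 and 40.8 FPKM in MLN4924 hypoxia, 65.1, 66.3 and 66.2 FPKM in MLN4924 normoxia, 25.1, 23.3 and 25.9 FPKM in DMSO hypoxia, and 37.8, 36.7 and 39.7 FPKM in DMSO normoxia, so the replicates were tight and MLN4924 hypoxia lay beside DMSO normoxia. Its partner Nop56 averaged 68.6 ± 1.89, 98.2 ± 5.13, 43.1 ± 5.81 and 66.1 ± 5.95 FPKM in the same order of groups. Rrp9, a protein specific to the U3 particle that guides the first cuts, had 14.6, 11.6 and 12.7 FPKM in MLN4924 hypoxia, 31.4, 31.6 and 34.1 FPKM in MLN4924 normoxia, 8.75, 9.36 and 6.79 FPKM in DMSO hypoxia, and 18.3, 19.9 and 16.8 FPKM in DMSO normoxia. No groups of Rrp9 overlapped.

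The box H/ACA snoRNPs convert uridines of rRNA to pseudouridine. Dkc1, the pseudouridine synthase, which is also part of telomerase, had 19.3, 16.6 and 16.8 FPKM in MLN4924 hypoxia, 34.4, 34.7 and 30.8 FPKM in MLN4924 normoxia, 13.3, 12.8 and 10.8 FPKM in DMSO hypoxia, and 20.7, 22.7 and 20.1 FPKM in DMSO normoxia. Its 4 groups did not overlap. Nhp2, an RNA-binding core protein of the particle, had 102, 92.5 and 92.7 FPKM in MLN4924 hypoxia, 169, 169.7 and 164 FPKM in MLN4924 normoxia, 66.9, 59.5 and 50.9 FPKM in DMSO hypoxia, and 99.8, 101 and 95.9 FPKM in DMSO normoxia. Here too MLN4924 hypoxia overlapped with DMSO normoxia and with nothing else. The other core proteins departed from this: Gar1 averaged 38.9 ± 6.76, 39.4 ± 10.7, 25.1 ± 2.77 and 23.5 ± 4.79 FPKM in MLN4924 hypoxia, MLN4924 normoxia, DMSO hypoxia and DMSO normoxia, and Nop10 averaged 33.1 ± 2.38, 52.6 ± 5.34, 36.2 ± 8.22 and 47.8 ± 2.93 FPKM. By these means Gar1 was higher with MLN4924 at both oxygen levels, and Nop10 was lower in hypoxia with either treatment.

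Small subunit processing is carried out by the large particle that forms on the young precursor. Nop14, a factor of that particle, had 39.7, 41.1 and 42.0 FPKM in MLN4924 hypoxia, 36.1, 37.4 and 39.0 FPKM in MLN4924 normoxia, 20.4, 19.3 and 20.1 FPKM in DMSO hypoxia, and 25.0, 23.8 and 23.6 FPKM in DMSO normoxia. It was the member of this role whose hypoxia libraries lay above its normoxia libraries under MLN4924. Wdr43, of the subcomplex that also aids Pol I transcription, had 19.7, 20.2 and 19.1 FPKM in MLN4924 hypoxia, 34.3, 34.8 and 32.9 FPKM in MLN4924 normoxia, 13.3, 14.6 and 14.8 FPKM in DMSO hypoxia, and 23.5, 24.6 and 22.6 FPKM in DMSO normoxia, with no overlap.

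The remaining small subunit factors were of low to middling abundance. Heatr1, Utp4, Utp15 and Wdr75, of the same subcomplex as Wdr43, averaged 6.60, 33.9, 8.45 and 17.0 FPKM in MLN4924 hypoxia, 11.2, 41.5, 11.4 and 19.7 FPKM in MLN4924 normoxia, and 7.76, 26.8, 8.94 and 16.1 FPKM in DMSO normoxia. In DMSO hypoxia Utp4 averaged 17.9 ± 2.29 FPKM and Utp15 6.48 ± 0.493 FPKM, while Heatr1 had 1.24, 4.73 and 3.79 FPKM, and Wdr75 was listed at 0 in replicate 1 and had 7.31 and 5.94 FPKM in the others. Both Heatr1 and Wdr75 were thus lowest in the library that stood apart. Utp20 (a large scaffold protein), Bysl (a late assembly factor), Nob1 (the endonuclease that makes the end of the mature small subunit RNA) and Rrp12 (an export factor, known best from yeast) averaged 8.53, 9.15, 19.0 and 5.56 FPKM in MLN4924 hypoxia, 11.8, 19.3, 24.7 and 9.91 FPKM in MLN4924 normoxia, 5.20, 6.66, 14.9 and 2.82 FPKM in DMSO hypoxia, and 8.94, 14.4, 17.6 and 6.47 FPKM in DMSO normoxia.

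For the large subunit, Pes1, Bop1 and Wdr12 encode the PeBoW complex, which is required to process its RNA. Their values were not alike. Bop1 had 41.3, 37.1 and 37.0 FPKM in MLN4924 hypoxia, 68.1, 65.9 and 66.7 FPKM in MLN4924 normoxia, 37.8, 40.4 and 36.7 FPKM in DMSO hypoxia, and 58.7, 60.7 and 59.7 FPKM in DMSO normoxia, so it went with oxygen, and its hypoxia groups overlapped. Pes1 averaged 52.6 ± 2.46 FPKM in MLN4924 hypoxia, 56.6 ± 1.72 FPKM in MLN4924 normoxia, 37.2 ± 2.24 FPKM in DMSO hypoxia and 38.4 ± 2.81 FPKM in DMSO normoxia, so it went with the inhibitor. Wdr12 averaged 6.04 ± 0.930 FPKM in MLN4924 hypoxia, 7.46 ± 0.695 FPKM in MLN4924 normoxia and 4.79 ± 0.641 FPKM in DMSO normoxia, and had 4.65, 1.42 and 1.11 FPKM in DMSO hypoxia.

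Nop2, a methyltransferase of the large subunit RNA, had 29.8, 26.4 and 29.1 FPKM in MLN4924 hypoxia, 59.5, 52.9 and 51.9 FPKM in MLN4924 normoxia, 18.4, 22.2 and 18.3 FPKM in DMSO hypoxia, and 34.4, 36.3 and 34.9 FPKM in DMSO normoxia. No groups overlapped. The assembly factors Wdr74, Nop16, Rrs1 and Ebna1bp2 and the gene Gnl3 (nucleostemin, a nucleolar GTPase of proliferating cells) averaged 38.6, 15.2, 19.3, 26.1 and 13.2 FPKM in MLN4924 hypoxia, 44.9, 31.6, 31.6, 32.0 and 18.7 FPKM in MLN4924 normoxia, 28.2, 11.2, 9.95, 15.9 and 10.2 FPKM in DMSO hypoxia, and 28.7, 22.7, 17.4, 19.2 and 14.1 FPKM in DMSO normoxia. All 5 were highest in MLN4924 normoxia and lowest in DMSO hypoxia by their means.

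The effect of the inhibitor in hypoxia was read from MLN4924 hypoxia against DMSO hypoxia. Nucleolar genes rose with MLN4924 throughout the pathway, and in no role did a member fall. Of the 39 members, 30 rose (12.2% of all tested genes) and 0 fell (13.3% of all tested genes), with a median log2 fold change of 0.53 over the members and -0.01 over all tested genes. All 10 small subunit factors rose, as did all 4 box C/D proteins, 5 of 8 Pol I genes, 3 of 4 phosphoproteins and chaperones, 2 of 4 box H/ACA proteins and 6 of 9 large subunit factors. In 32 members every MLN4924 library lay above every DMSO library (18.1% of all tested genes).

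By size the leading rises in that comparison were those of Nolc1, Wdr75, Mybbp1a, Wdr12 and Tcof1. Mybbp1a had a log2 fold change of 1.20 ± 0.14 (SE), an adjusted p of 0.000206 and a fold of 2.30. Tcof1 rose by 1.02 ± 0.15 (adjusted p = 0.000975), Nop14 by 1.00 ± 0.05 (adjusted p = 1.04e-06) and Wdr12 by 1.19 ± 0.30 (adjusted p = 0.0159). Nolc1 and Wdr75, with the library at 0, rose by 2.70 ± 0.75 (adjusted p = 0.0246) and 2.17 ± 0.67 (adjusted p = 0.0366); without DMSO hypoxia replicate 1 the values were 1.52 ± 0.18 and 1.20 ± 0.31. Heatr1 and Utp20 also moved by over 1.5 times, to 0.53 without that library against 0.94 with it, and to 0.43 against 0.66. Among the enzymes and core proteins, Nhp2 rose by 0.70 ± 0.09, Nop58 by 0.69 ± 0.05, Rrp9 by 0.59 ± 0.12, Polr1b by 0.50 ± 0.11, Dkc1 by 0.48 ± 0.09 and Rrn3 by 0.44 ± 0.07. Of those not called, Polr1a had 0.23 ± 0.11 (adjusted p = 0.139), Ubtf -0.12 ± 0.12, Bop1 0.0048 ± 0.06 and Taf1d -0.05 ± 0.16.

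Without DMSO hypoxia replicate 1, 32 members rose and 1 fell, which was Ubtf (log2 -0.28, adjusted p = 0.0301). Over all 12311 tested genes that fit had 2066 rises and 1927 falls, against 1498 and 1639 with the library. With each of the 12 libraries left out in turn, 21 of the 30 calls held throughout. Fbl (adjusted p = 0.0499) lost its call with 9 of the libraries left out, Wdr75 with 7, Nolc1 and Heatr1 with 3, Ncl, Nob1 and Wdr74 with 2, and Utp15 and Wdr12 with 1, at adjusted p up to 0.146. In a fit of the 2 groups alone 16 members rose.

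In normoxia, where the question is what the inhibitor does at ordinary oxygen, MLN4924 was set against DMSO. Again nucleolar genes rose together: 26 members rose (9.33% of all tested genes) and 0 fell (10.7% of all tested genes), and the median log2 fold change was 0.55 over the members and -0.03 over all tested genes. In 35 members every MLN4924 library lay above every DMSO library (22.2% of all tested genes). All 4 box C/D proteins and 3 of 4 box H/ACA proteins rose, with 5 of 8 Pol I genes, 2 of 4 phosphoproteins and chaperones, 7 of 10 small subunit factors and 5 of 9 large subunit factors. The leading rises were those of Mybbp1a (0.93 ± 0.14, adjusted p = 0.00107), Rrs1, a factor of early large subunit assembly (0.83 ± 0.11), Rrp9 (0.79 ± 0.12), Npm3 (0.78 ± 0.13) and Nop58 (0.78 ± 0.05, adjusted p = 6.81e-06).

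Other named members rose less in normoxia. Nhp2 rose by 0.76 ± 0.09, Fbl by 0.74 ± 0.18, Dkc1 by 0.63 ± 0.09, Nop2 by 0.62 ± 0.09, Nop14 by 0.62 ± 0.05, Ddx21 by 0.52 ± 0.10, Wdr43 by 0.51 ± 0.06, Polr1b by 0.39 ± 0.11, Ncl by 0.37 ± 0.08 and Rrn3 by 0.26 ± 0.07. Not called were Polr1a (0.29 ± 0.11, adjusted p = 0.0843), Ubtf (-0.05 ± 0.12), Npm1 (0.48 ± 0.18, adjusted p = 0.0971) and Bop1 (0.16 ± 0.06, adjusted p = 0.0715). The fit shares its spread over all groups, so the library that stood apart bears on this comparison as well. Without it 35 members rose, and Npm1 (0.48 ± 0.05, adjusted p = 6.50e-05) was among them. Rises over all tested genes went from 1149 to 1975 of 12311 when it was left out. With each library left out in turn, 20 of the 26 calls held. Gar1 lost its call with 7 of the libraries, Polr1b and Rrn3 with 6, Taf1d with 5, Utp15 with 4 and Fbl with 2, at adjusted p up to 0.153.

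The 2 comparisons of the inhibitor share no library, but both use the spread estimated over all 12 libraries, so they are not independent. They had 24 rising members in common, which is 92.3% of the 26 in normoxia and 80% of the 30 in hypoxia. Over all tested genes 743 rose in both, which is 64.7% of the 1149 in normoxia and 49.6% of the 1498 in hypoxia.

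For hypoxia in cells without the inhibitor, DMSO hypoxia was compared with DMSO normoxia. Nucleolar genes fell with hypoxia in every role: 29 of 39 fell (19.4% of all tested genes) and 1, Taf1d, rose (13.8% of all tested genes), with a median log2 fold change of -0.61 over the members and -0.08 over all tested genes. The falls took in 6 of 8 Pol I genes, 2 of 4 phosphoproteins and chaperones, 3 of 4 box C/D and 3 of 4 box H/ACA proteins, 9 of 10 small subunit factors and 6 of 9 large subunit factors. In 29 members every hypoxia library lay below every normoxia library (26.9% of all tested genes), and in 2 every hypoxia library lay above (18.3%).

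The leading falls were those of Nolc1 (-2.62 ± 0.75, adjusted p = 0.0225), Wdr75 (-2.10 ± 0.67, adjusted p = 0.0340), Heatr1 (-1.15 ± 0.27, adjusted p = 0.00846), Ddx21 (-1.08 ± 0.10, adjusted p = 2.17e-05) and Rrp9 (-1.06 ± 0.12, adjusted p = 9.08e-05). Without DMSO hypoxia replicate 1 they were -1.44 in Nolc1, -1.12 in Wdr75 and -0.74 in Heatr1, and Tcof1 fell by 0.26 without it, against 0.49 with it. Taf1d rose by 1.54 ± 0.16, a fold of 2.91 (adjusted p = 5.78e-05). Polr1b fell by 0.99 ± 0.11, Mybbp1a by 0.88 ± 0.14, Nop2 by 0.81 ± 0.09, Nhp2 and Dkc1 each by 0.74 ± 0.09, Wdr43 by 0.69 ± 0.06, Bop1 by 0.63 ± 0.06, Polr1a by 0.62 ± 0.11, Nop58 by 0.60 ± 0.05, Ncl by 0.59 ± 0.08, Rrn3 by 0.54 ± 0.07 and Nop14 by 0.26 ± 0.05. Ubtf (-0.34 ± 0.12, adjusted p = 0.0614), Npm3 (-0.35 ± 0.13, adjusted p = 0.0546), Fbl (-0.25 ± 0.18, adjusted p = 0.324), Pes1 (-0.04 ± 0.07) and Wdr74 (-0.03 ± 0.11) were not called.

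Without the library that stood apart, 31 members fell and 2 rose, the second being Npm1 (0.18 ± 0.06, adjusted p = 0.0290). Over all 12311 tested genes 2948 fell and 1820 rose without it, against 2393 and 1700 with it. Of the 30 calls, 24 held with each library left out in turn; Wdr12 lost its call with 11 of the libraries, Nop10 with 7, Gnl3 with 6, Tcof1 and Wdr75 with 3 and Nolc1 with 2, at adjusted p up to 0.124.

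Hypoxia with the inhibitor present was read from MLN4924 hypoxia against MLN4924 normoxia. Again most nucleolar genes fell: 25 of 39 fell (16.5% of all tested genes) and 1, Taf1d, rose (11.7% of all tested genes), with a median log2 fold change of -0.58 over the members and -0.05 over all tested genes. The falls took in 6 of 8 Pol I genes, 3 of 4 box C/D and 3 of 4 box H/ACA proteins, 2 of 4 phosphoproteins and chaperones, 6 of 10 small subunit factors and 5 of 9 large subunit factors. In 30 members every hypoxia library lay below every normoxia library (30.7% of all tested genes), and in 3 above (22.6%). Rrp9 fell by 1.26 ± 0.12 (adjusted p = 3.99e-05), Nop16 by 1.01 ± 0.16 (adjusted p = 0.00100), Bysl by 1.00 ± 0.09 (adjusted p = 2.52e-05), Nop2 by 0.92 ± 0.09 (adjusted p = 3.59e-05) and Dkc1 by 0.89 ± 0.09 (adjusted p = 8.88e-05).

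Of the other named members, Polr1b fell by 0.88 ± 0.11, Nhp2 by 0.80 ± 0.09, Bop1 by 0.78 ± 0.06, Ddx21 by 0.78 ± 0.10, Wdr43 by 0.76 ± 0.06, Nop58 by 0.69 ± 0.05, Polr1a by 0.68 ± 0.11, Ncl by 0.63 ± 0.08, Mybbp1a and Npm3 each by 0.60, Ubtf by 0.41 ± 0.12 and Rrn3 by 0.36 ± 0.07. Taf1d rose by 0.90 ± 0.16 (adjusted p = 0.00211). Nop14 (0.12 ± 0.05, adjusted p = 0.110), Tcof1 (0.10 ± 0.15), Npm1 (0.0089 ± 0.18) and Gar1 (0.0053 ± 0.21) were not called. Without DMSO hypoxia replicate 1 in the fit, 29 members fell and 2 rose, the second being Nop14 (adjusted p = 0.0442). Over all 12311 tested genes 3043 fell and 2199 rose without that library, against 2034 and 1439 with it. Of the 26 calls, 22 held with each library left out in turn; Utp4 lost its call with 5 of the libraries, Ubtf and Gnl3 with 4 and Nob1 with 2, at adjusted p up to 0.114.

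The 2 comparisons of hypoxia share no library, but they too use the spread estimated over all 12 libraries and are not independent. The 22 members that fell in both were 75.9% of the 29 with DMSO and 88% of the 25 with MLN4924. Over all tested genes 1369 fell in both, which is 57.2% of the 2393 with DMSO and 67.3% of the 2034 with MLN4924. These shares of the members and of all genes were not tested against each other.

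**Figure D4:**
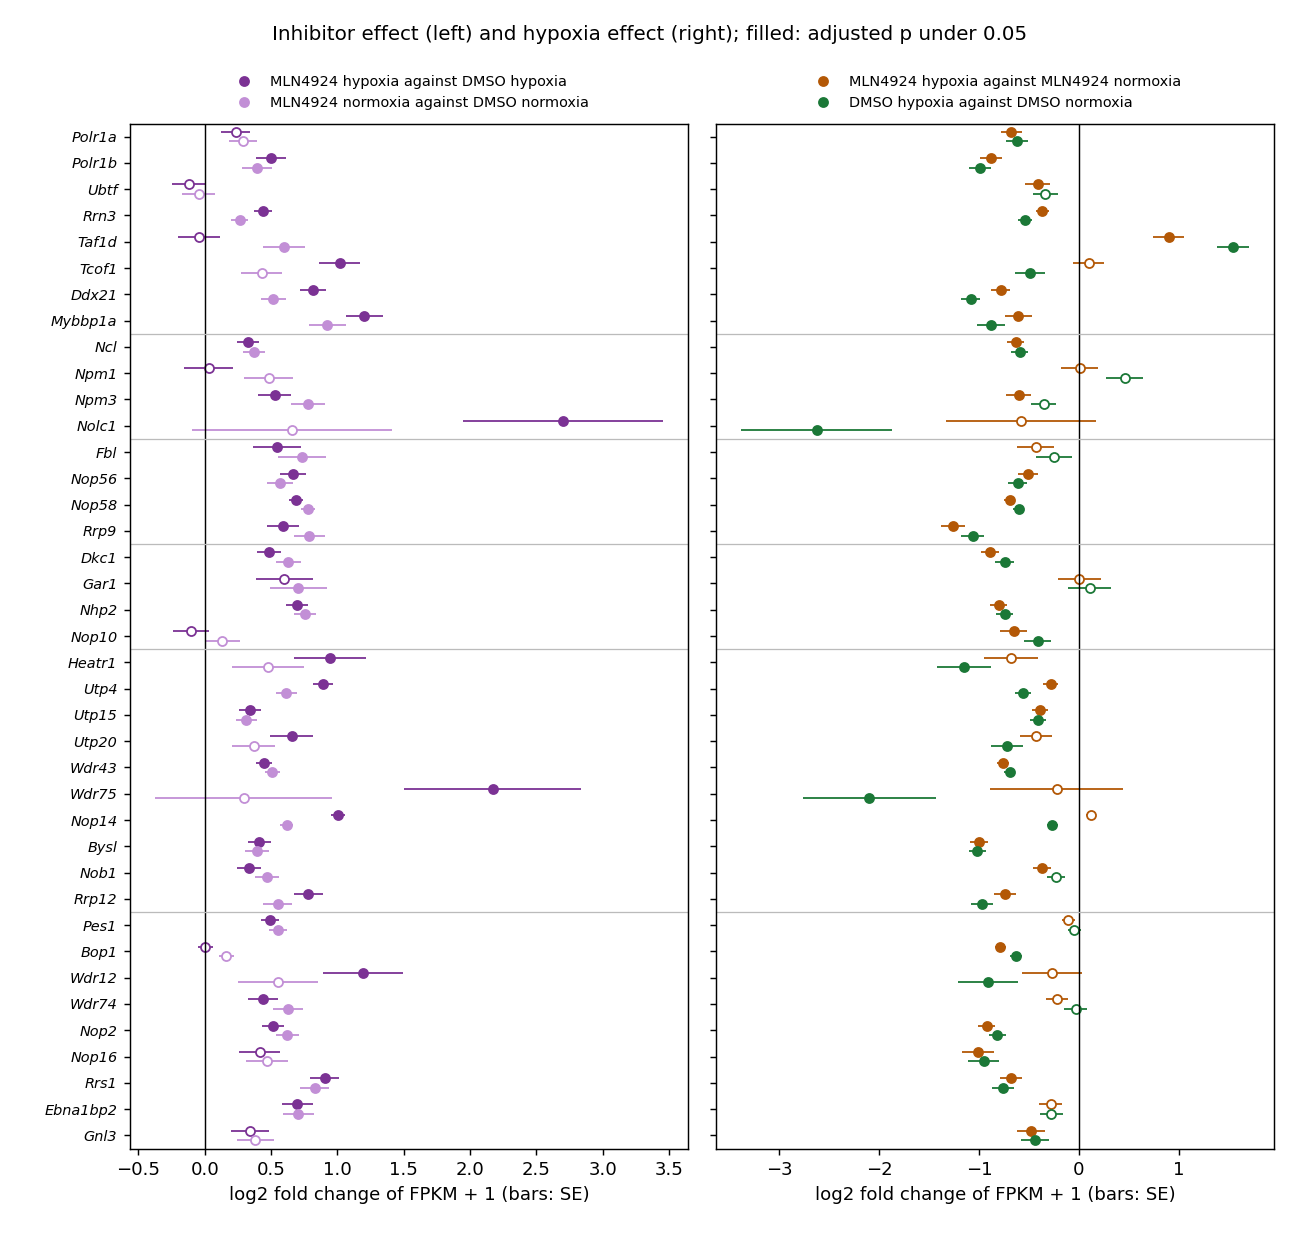
Log2 fold change of FPKM + 1 with its SE for each of the 39 members, for MLN4924 against DMSO (left; dark in hypoxia, light in normoxia) and for hypoxia against normoxia (right; brown with MLN4924, green with DMSO), filled where the adjusted p was under 0.05. Points lie mostly right of 0 on the left and left of 0 on the right, with Taf1d at 0.90 and 1.54 on the right.

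The interaction asks whether the effect of hypoxia differed with the inhibitor, and it subtracts the log2 fold change of hypoxia under DMSO from that under MLN4924. It was called in 1 member higher (0.958% of all tested genes) and in 0 lower (0.926% of all tested genes), and its median was -0.04 over the members and 0.02 over all tested genes. The member was Nop14, with 0.39 ± 0.07 on the log2 scale (adjusted p = 0.0282): the log2 fold change of hypoxia was 0.12 ± 0.05 under MLN4924 and -0.26 ± 0.05 under DMSO. Leaving out single libraries ended that call in 9 of 12 cases, at adjusted p up to 0.0943. Without DMSO hypoxia replicate 1, Nop14 (0.40 ± 0.06), Tcof1 (0.36 ± 0.08, adjusted p = 0.0400) and Wdr12 (1.08 ± 0.19, adjusted p = 0.0101) were called. That fit called 406 of all 12311 tested genes higher and 272 lower, against 118 and 114 with the library. For members with tight replicates the estimates were -0.09 ± 0.07 in Nop58 and -0.06 ± 0.12 in Nhp2. Those of Wdr43 and Dkc1 were -0.07 ± 0.08 and -0.14 ± 0.13. Differences between the hypoxia effects well above the SE could also go uncalled, as in Taf1d at -0.64 ± 0.22 (adjusted p = 0.216). An interaction that was not called therefore does not show that the hypoxia effects were equal.

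Both treatments together were set against neither by MLN4924 hypoxia against DMSO normoxia. The nucleolar genes did not move 1 way: 8 of 39 rose (14.6% of all tested genes) and 11 fell (21.2% of all tested genes), and the median log2 fold change was -0.05 over the members and -0.07 over all tested genes. Those that rose were Taf1d (1.49 ± 0.16, adjusted p = 4.95e-05), Nop14 (0.74 ± 0.05, adjusted p = 2.93e-06), Gar1 (0.71 ± 0.21), Tcof1 (0.53 ± 0.15), Pes1 (0.45 ± 0.07), Ebna1bp2 (0.42 ± 0.12), Wdr74 (0.41 ± 0.11) and Utp4 (0.33 ± 0.08). Those that fell were Bop1 (-0.62 ± 0.06, adjusted p = 1.69e-05), Bysl (-0.60 ± 0.09, adjusted p = 0.000399), Nop16 (-0.54 ± 0.16), Nop10 (-0.52 ± 0.14), Polr1b (-0.49 ± 0.11), Rrp9 (-0.47 ± 0.12), Ubtf (-0.46 ± 0.12), Polr1a (-0.39 ± 0.11), Nop2 (-0.30 ± 0.09), Ncl (-0.26 ± 0.08) and Wdr43 (-0.25 ± 0.06). In 11 members every MLN4924 hypoxia library lay above every DMSO normoxia library (23.8% of all tested genes), and in 15 below (34.2%).

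Of the Pol I genes 2 rose and 3 fell, of the large subunit factors 3 and 3, of the small subunit factors 2 and 2, of the box H/ACA proteins 1 and 1, of the box C/D proteins 0 and 1, and of the phosphoproteins and chaperones 0 and 1. Not called were Rrn3 (-0.10 ± 0.07), Nop58 (0.08 ± 0.05), Nhp2 (-0.05 ± 0.09), Mybbp1a (0.32 ± 0.14), Dkc1 (-0.26 ± 0.09, adjusted p = 0.0530) and Ddx21 (-0.26 ± 0.10, adjusted p = 0.0531). Under median-of-ratios scaling of the libraries 11 rose and 9 fell. Without DMSO hypoxia replicate 1 in the fit, 10 rose and 13 fell. Over all 12311 tested genes 2473 rose and 3602 fell in that fit, against 1794 and 2614 with the library. Without MLN4924 hypoxia replicate 2, 5 members rose, against 1437 of all 12311 tested genes. Leaving out DMSO normoxia replicate 2 gave 6 falling members, against 2133 of all 12311 tested genes. Of the 19 calls, 10 held with each library left out in turn. Ncl lost its call with 5 of the libraries, Gar1 and Nop16 with 4, Polr1a, Tcof1 and Wdr74 with 3, and Ubtf, Nop2 and Ebna1bp2 with 2, at adjusted p up to 0.102.

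The rest of the pathway was counted in a list of 149 other genes of ribosome biogenesis (further Pol I subunits, subunit processing factors, snoRNP assembly factors and the RNA exosome, which trims precursors). Of them 141 were tested. With MLN4924 in hypoxia 61 rose and 3 fell, and in normoxia 73 rose and 2 fell, with median log2 fold changes of 0.24 and 0.33. With hypoxia 76 fell and 3 rose under MLN4924, and 69 fell and 7 rose under DMSO, with medians of -0.31 and -0.28. MLN4924 hypoxia against DMSO normoxia had 24 higher and 25 lower, and 37 higher and 14 lower under median-of-ratios scaling. Its 25 lower became 16 without MLN4924 hypoxia replicate 2, MLN4924 hypoxia replicate 3 or DMSO normoxia replicate 2, and 15 without DMSO normoxia replicate 3. The 61 rises with MLN4924 in hypoxia became 30 in a fit of the compared groups alone. Without DMSO hypoxia replicate 1, MLN4924 had 88 rises and 4 falls in hypoxia and 96 rises and 2 falls in normoxia. All 12311 tested genes then had 2066 and 1927, and 1975 and 2240. With hypoxia, 89 fell under MLN4924 and 87 under DMSO without that library, against 3043 and 2948 of all tested genes. MLN4924 hypoxia against DMSO normoxia then had 34 higher and 34 lower, against 2473 and 3602. The 3 rises with hypoxia under MLN4924 became 6 without DMSO hypoxia replicate 1, the 7 under DMSO became 4 without DMSO normoxia replicate 1 or 3, and the 2 falls with MLN4924 in normoxia became 1 without MLN4924 normoxia replicate 1 or 3 or DMSO normoxia replicate 2 or 3. The interaction was called in 0 of the 141 by limma, against 0.958% of all tested genes higher and 0.926% lower. Its unadjusted p was under 0.05 in 12 of the 141 and in 1798 of all 12311 tested genes. The shares lay between those of the 39 members and those of all tested genes for rises with MLN4924 and falls with hypoxia.

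Of the further Pol I subunits and factors in that list, 17 were tested. With MLN4924 in hypoxia 2 (11.8%) rose and 1 (5.88%) fell (median 0.06), against 12.2% and 13.3% of all tested genes. In normoxia 3 (17.65%) rose and 1 (5.88%) fell with it (median 0.15), against 9.33% and 10.7%. With hypoxia under MLN4924, 5 of the 17 (29.4%) fell and 1 (5.88%) rose (median -0.18), against 16.5% and 11.7% of all tested genes. Under DMSO 4 (23.5%) fell and 1 (5.88%) rose (median -0.13), against 19.4% and 13.8%. Of the 52 large subunit factors of the list, 32 (61.5%) fell with hypoxia under MLN4924 and 34 (65.4%) under DMSO. The shares of all tested genes were 16.5% and 19.4%. Of 9 tested genes of the MYC network, MLN4924 in hypoxia had 1 (11.1%) higher and 3 (33.3%) lower, against 12.2% and 13.3% of all tested genes. MLN4924 in normoxia had 2 (22.2%) higher and 2 (22.2%) lower, against 9.33% and 10.7%. Hypoxia under DMSO had 2 (22.2%) higher and 0 lower, against 13.8% and 19.4%. Under MLN4924 hypoxia had 3 (33.3%) higher and 1 (11.1%) lower, against 11.7% and 16.5%.

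**Figure D5:**
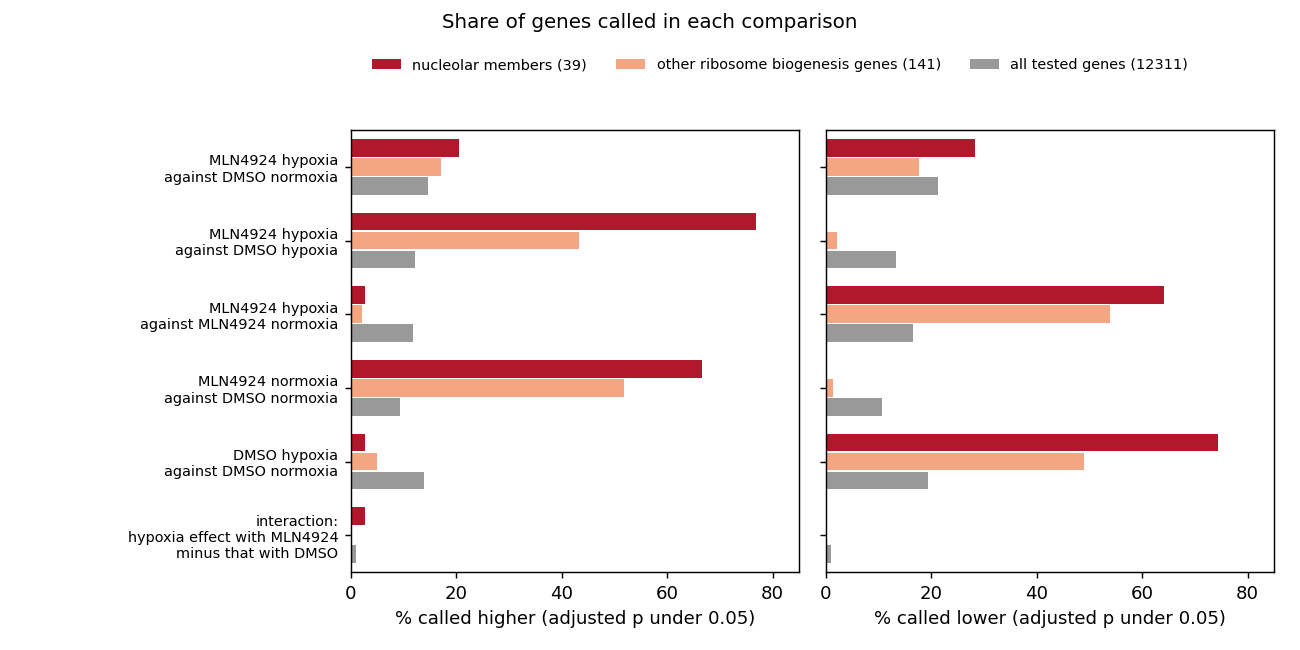
Percent of genes called higher (left) and lower (right) at an adjusted p under 0.05 in each comparison, for the 39 nucleolar members, 141 other ribosome biogenesis genes and all 12311 tested genes. The members have the longest bars for rises with MLN4924 (30 and 26 of 39) and falls with hypoxia (25 and 29 of 39).

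How alike the members were is described by the Pearson correlation of each with the mean of the other members over the 12 libraries, which share groups and the scaling of FPKM. It was highest for Nhp2 (0.988), Nop58 (0.981) and Rrs1 (0.981) and lowest for Taf1d (-0.519), Npm1 (-0.0068), Ubtf (0.405) and Gar1 (0.518). Among 8084 genes outside the members with a mean of at least 5 FPKM, those most like the members' mean pattern over the 12 libraries were Ppan (r = 0.994), Antxr2 (r = 0.994) and Atic (r = 0.991). Ppan averaged 18.6 FPKM in MLN4924 hypoxia, 27.8 FPKM in MLN4924 normoxia, 10.9 FPKM in DMSO hypoxia and 17.2 FPKM in DMSO normoxia. Besides Taf1d, exons of Bop1, Bysl, Dkc1, Gnl3, Heatr1, Mybbp1a, Nhp2, Nop56, Pes1, Rrp9 and Wdr12 overlap a coding gene on the opposite strand, so their values may hold reads of that partner, and this was not tested.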

How the data were processed

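Per the labels, NEBNext Ultra libraries were made from column-purified total RNA of GC-2 cells and read as pairs on a NovaSeq instrument, 12 in all. The submitters' processing notes name fastp, STAR, RSEM 1.3.3 and the build mm39, without the role of each; the annotation and strandedness are not given in the sources used here. The values are FPKM that the authors deposited, 1 column a library; depth is unknown, and FPKM are relative to each library's total.

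The test used log2(FPKM + 1) of genes that reached 1 FPKM in 3 or more libraries and limma 3.58.1 (R 4.3.3), with a mean for each group, a spread shared over the 4 groups and an intensity trend. P-values are two-sided and Benjamini-Hochberg adjusted over all tested genes within a comparison, and 0.05 was the threshold. A gene rose or fell where it passed that threshold. Fold changes on this scale understate changes of low genes, and an exact permutation test of 3 against 3 libraries cannot go below p = 0.1. The fit was also run on simulated data with normal noise and, for each gene, the same spread in every library. Those data held no library that stood apart, so they cannot show how the fit handles one. Promoters came from RefSeq on GRCm38.p6 and exon overlaps from GENCODE vM21, both of the build before mm39 and used by symbol.

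The members and lists were chosen with earlier results of these data known. Named in full were Polr1a, Polr1b, Ubtf, Rrn3, Ncl, Npm1, Fbl, Dkc1, the 2 members of each role with the smallest F-test p and, for each comparison, the 5 leading called members in either direction; Taf1d, Nolc1, Heatr1, Wdr75 and Wdr12 were given by library because of the library that stood apart or an opposite direction. Alternatives were another pseudocount (0.1), another or no filter, median-of-ratios scaling, equal totals, array weights, fits of the compared groups alone, no intensity trend, a replicate block and each library left out.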

Additional observations from a re-analysis of the deposited data

Results flagged for a closer look

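Nop14 was the member whose response to hypoxia differed between MLN4924 and DMSO by a test of the difference itself: the interaction was 0.387 on the log2 scale (SE 0.07, adjusted p = 0.0282 by limma). It was 1 of 39 members called higher, against 0.958% of all tested genes. The call was lost under 11 of 21 alternatives, at adjusted p up to 0.0943. These were 9 of the 12 libraries left out singly, the replicate block and no intensity trend. For an interaction the fit of the compared groups alone repeats the main fit, so that alternative could not lose the call. The value itself stayed between 0.36 and 0.46. Hypoxia gave a log2 fold change of 0.12 with MLN4924 and of -0.26 with DMSO. All 3 MLN4924 hypoxia libraries (39.7 to 42.0 FPKM) lay above the 3 MLN4924 normoxia libraries (36.1 to 39.0 FPKM), and all 3 DMSO hypoxia libraries (19.3 to 20.4 FPKM) lay below the 3 DMSO normoxia libraries (23.6 to 25.0 FPKM). An antisense gene overlaps its exons in GENCODE vM21, and its part in the result was not tested.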

How the results depend on the processing

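None of the 132 calls over members and comparisons turned its direction under any of the 21 alternatives. Several of these could not turn it, because they leave a gene's fold change as in the main fit. They are the filters, the fits of the compared groups alone, the replicate block and no intensity trend. The same holds where the library left out was in neither compared group. Rises with MLN4924 in hypoxia numbered 16 in a fit of the compared groups alone, against 30, and falls numbered 1 with array weights, against 0. Rises with hypoxia under MLN4924 numbered 2 with median-of-ratios scaling and 2 with array weights, against 1, and under DMSO 2 with equal totals and 2 with array weights, against 1. The interaction was called in 2 members with array weights and in 0 without the intensity trend. With each library left out in turn, rises and falls of members ranged from 5 to 10 and 6 to 13 for MLN4924 hypoxia against DMSO normoxia, from 21 to 32 and 0 to 1 for MLN4924 in hypoxia, from 1 to 2 and 21 to 29 for hypoxia under MLN4924, from 21 to 35 and 0 to 0 for MLN4924 in normoxia, from 1 to 2 and 23 to 31 for hypoxia under DMSO, and from 0 to 3 and 0 to 0 for the interaction. The cause of these shifts was not tested.

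Same-numbered libraries of different groups did not deviate together (18 pairs, r from -0.07 to 0.10, and 4 of 12 libraries closest to their own number). Such correlations cannot show whether same-numbered libraries were grown or processed together, which is not stated in the sources used here. With the replicate block 126 of the 132 calls stayed, 6 were lost and 4 were gained, and the interaction was called in 0 members.

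Over all tested genes, fits of the compared groups alone gave 621 rises and 643 falls with MLN4924 in hypoxia (1498 and 1639 in the shared fit) and 944 and 1280 with hypoxia under DMSO (1700 and 2393), but 1928 and 2140 with MLN4924 in normoxia (1149 and 1318). For the last comparison array weights gave 2098 and 2426, the fit without DMSO hypoxia replicate 1 gave 1975 and 2240, and falls were 875 without DMSO normoxia replicate 3. With hypoxia under MLN4924 the shared fit gave 1439 and 2034, array weights 2236 and 3103, and rises were 2199 without DMSO hypoxia replicate 1. The interaction was called higher in 118 genes and lower in 114, in 478 and 365 with array weights, in 406 and 272 without that library, in 56 and 76 with the replicate block, and in as few as 42 and 48 without MLN4924 normoxia replicate 3. FPKM give no depth, so what depth limits could not be read.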
